A study of Homo sapiens with 12 samples.

Results

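The genes described here are 37 genes of one-carbon, serine and methionine metabolism, chosen by name from a list that covers serine synthesis, the folate cycle, glycine cleavage, the methionine cycle, choline and betaine breakdown, transsulfuration and polyamine synthesis. The choice was made with earlier results of these data known. The 37 genes were followed in 2 human hepatocellular carcinoma cell lines, HepG2 and Huh7, after depletion of UBL5, a small ubiquitin-like protein that binds parts of the pre-mRNA splicing machinery. All 37 genes were among the 17640 genes listed for HepG2 and 35 were among the 18434 listed for Huh7, where ALDH1L1 and GNMT had no row in the tables used here. Poly(A) RNA was sequenced from HepG2 cells with UBL5 siRNA, HepG2 cells with non-targeting Ctrl-siRNA, Huh7 cells with UBL5 siRNA and Huh7 cells with Ctrl-siRNA, with 3 libraries in each of the 4 groups and 12 in all. Both lines were of wild-type genotype per the labels, were grown in low glucose DMEM with 10% serum, were transfected with Lipofectamine RNAiMAX, received fresh medium after a night and, per the labels, were collected 52 hours after transfection. A figure legend of the paper gives a shorter time between transfection and RNA isolation. Each line is a single tumor-derived line, and separate transfections are not stated for the 3 libraries of a group. The p-values therefore measure the spread between these libraries, which may be technical.

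One-carbon metabolism carries single carbon units on folate, taken largely from serine, to nucleotide synthesis and to the methylation of homocysteine to methionine. Methionine is turned into S-adenosylmethionine, the methyl donor of the cell, and the homocysteine left over is methylated again or passed through transsulfuration to cysteine. The liver is the main site of this cycle and also remakes methionine from betaine, a breakdown product of choline, through the enzyme encoded by BHMT.

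UBL5 RNA, which checks the labels, had 6.88, 4.31 and 2.801 CPM with UBL5 siRNA, against 60.4, 55.5 and 58.7 CPM with Ctrl-siRNA in HepG2, where CPM are read counts normalized to library size with TMM scaling within a line. The Huh7 libraries had 6.45, 6.67 and 5.802 CPM with UBL5 siRNA, against 68.1, 70.8 and 67.1 CPM with Ctrl-siRNA. The log2 fold changes were −3.63 ± 0.263 (padj = 8.36e-05) in HepG2 and −3.44 ± 0.0747 (padj = 2.86e-10) in Huh7, each with its standard error after the ± sign. The adjusted p (padj) is from edgeR's quasi-likelihood test with Benjamini-Hochberg adjustment over all genes tested in a line. The same test stands behind every padj below unless another is named, and a gene is called higher or lower where padj is under 0.05.

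Total counts per library ran from 19983681 to 24245412 in HepG2 with UBL5 siRNA, from 23672962 to 29744471 in HepG2 with Ctrl-siRNA, from 20710925 to 22126273 in Huh7 with UBL5 siRNA and from 19469574 to 27158770 in Huh7 with Ctrl-siRNA. The HepG2 Ctrl-siRNA library of replicate 3 stood apart, with 1773 of the listed genes at 0 counts, against 159 to 233 in the other HepG2 libraries, and the member counts in HepG2 and between the lines are given with and without replicate 3. The biological coefficient of variation was 0.189 in HepG2 and 0.0663 in Huh7, so smaller differences could pass the test in Huh7. All 13 hepatocyte genes of a marker list were listed in both lines, with summed levels of 58390 to 68890 CPM with UBL5 siRNA and 60230 to 65470 CPM with Ctrl-siRNA in HepG2, and of 34140 to 34850 and 32520 to 34300 CPM in Huh7. Of 6 leukocyte markers, 2 were listed in HepG2, with a sum of 5.56 to 9.15 CPM with UBL5 siRNA and 1.99 to 3.46 CPM with Ctrl-siRNA, and 1 in Huh7, with 4.34 to 5.38 and 1.49 to 1.76 CPM. PTPRC and CD3E, defining genes of leukocytes, were not among the genes listed for these cultured lines, and the source of the marker counts was not tested.

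Most of the genes that UBL5 siRNA changed in this pathway were lower. In HepG2, 21 of the 37 genes were lower, GCSH alone was higher, and 15 were not called. This is 56.8% lower and 2.7% higher, against 20.1% lower and 16.5% higher among all 15755 genes tested. Of all genes, 36.7% were called in either direction. The median log2 fold change of the 37 genes was −0.56, against 0.01 over all genes. Without both HepG2 libraries of replicate 3, an alternative chosen after the data were seen, 23 genes were lower and 1 higher. With the replicate number as a block, 23 were lower and GCSH lost its call (padj = 0.0644). Same-numbered HepG2 libraries deviated together, and the main fit, which has no block, leaves this pairing out. In Huh7, 21 of the 34 genes tested were lower, 8 were higher and 5 were not called, which is 61.8% lower and 23.5% higher. Of all 16965 genes tested, 36.4% were lower and 34.9% higher, 71.3% in either direction. The median was −0.24 in Huh7, against −0.01 over all genes. BHMT was listed in Huh7 but fell under the filter on low counts. In bulk RNA of this kind, a lower count cannot be told apart from fewer cells that hold the transcript.

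The libraries with UBL5 siRNA and those with Ctrl-siRNA did not overlap in CPM for 26 of the 37 genes in HepG2, with 22 lower and 4 higher, where 26.9% of all genes tested were lower in this sense and 26.1% higher, 53% in all. In Huh7 they did not overlap for 28 of 34 genes, with 20 lower and 8 higher, against 38% and 35.9% of all genes, 73.9% in all. Of the 34 genes tested in both lines, 18 were lower in both, which is 52.9%, against 16.4% of the 14518 genes tested in both lines, and 1 of 34, GCSH, was higher in both, which is 2.94%, against 14.5%. No member was called in opposite directions by edgeR or by DESeq2, and at an unadjusted p under 0.05 in both lines, 1 had opposite signs, AMD1. Summed over the listed members, the level was 3999.7, 3597.5 and 3532.8 CPM with UBL5 siRNA, against 4930.1, 4753.8 and 4613.1 CPM with Ctrl-siRNA in HepG2. The sum in Huh7 was 4188.5, 4136.2 and 4081.6 CPM with UBL5 siRNA, against 4570.1, 4645.3 and 4609.4 CPM with Ctrl-siRNA, and the groups did not overlap in either line.

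**Figure D1:**
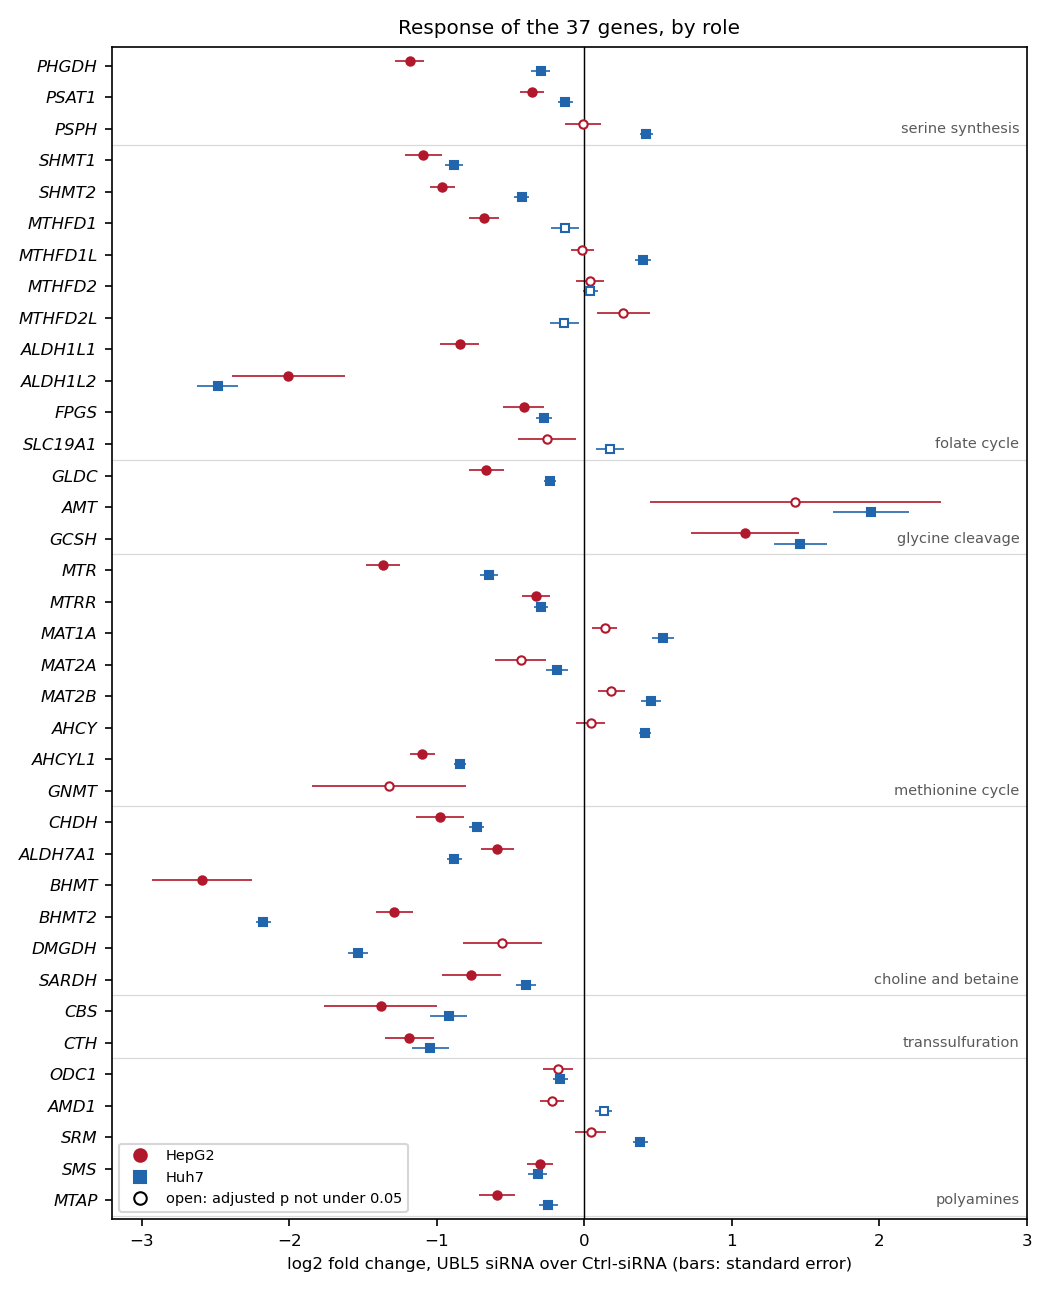
Log2 fold changes of UBL5 siRNA over Ctrl-siRNA (horizontal axis, with standard errors) for the 37 genes grouped by role, with circles for HepG2 and squares for Huh7 and open symbols where the adjusted p was not under 0.05. Most filled symbols lie left of 0, with BHMT at −2.59 in HepG2 and ALDH1L2 at −2.48 in Huh7 the farthest, and GCSH and AMT lie right of 0 in both lines, AMT with an open symbol in HepG2.

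RNA of the first and committed enzyme of serine synthesis from glucose fell in both lines, more in HepG2. PHGDH, the phosphoglycerate dehydrogenase gene (ENSG00000092621, chromosome 1 from 119648411 to 119744218 in GRCh38), had 87.5, 83.6 and 71.4 CPM with UBL5 siRNA, against 173, 189 and 189 CPM with Ctrl-siRNA in HepG2. Levels in Huh7 were 195, 197 and 201 CPM with UBL5 siRNA, against 218, 242 and 266 CPM with Ctrl-siRNA. The groups did not overlap in either line, and the log2 fold changes were −1.18 ± 0.0994 (padj = 0.000129) and −0.30 ± 0.0639 (padj = 0.00139), so the level fell by 55.95% in HepG2 and fell by 18.5% in Huh7. PSAT1, the transaminase of the next step, fell less, with −0.35 (padj = 0.0099) in HepG2 and −0.13 (padj = 0.0393) in Huh7. The HepG2 call of PSAT1 was lost without UBL5 siRNA replicate 2 (padj = 0.0512), and the Huh7 call was lost in DESeq2 (padj = 0.116), with RLE scaling, with no filter on low counts, in the fit over 12 libraries and without 4 of the 6 libraries (padj from 0.0874 to 0.147). PSPH, the phosphatase that releases serine, had −0.01 (padj = 0.969) in HepG2 and rose by 0.42 (padj = 6.70e-06) in Huh7.

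Serine gives its carbon to folate through the serine hydroxymethyltransferases, and both were lower in both lines. SHMT1, the cytosolic enzyme (ENSG00000176974, chromosome 17 from 18327860 to 18363563), had 46.7, 38.9 and 33.5 CPM with UBL5 siRNA, against 87.8, 84.2 and 81.9 CPM with Ctrl-siRNA in HepG2. Its levels in Huh7 were 41.9, 42.4 and 38.2 CPM with UBL5 siRNA, against 79.6, 74.1 and 71.8 CPM with Ctrl-siRNA. Every library with UBL5 siRNA was under every library with Ctrl-siRNA of its line, and the log2 fold changes were −1.09 ± 0.126 (padj = 0.000388) and −0.88 ± 0.0629 (padj = 1.97e-07). SHMT2, the mitochondrial enzyme (ENSG00000182199, chromosome 12 from 57229573 to 57234935), had 216, 209 and 198 CPM with UBL5 siRNA, against 372, 435 and 407 CPM with Ctrl-siRNA in HepG2. In Huh7, SHMT2 had 424, 397 and 400.3 CPM with UBL5 siRNA, against 516, 561 and 562 CPM with Ctrl-siRNA. It fell by 48.7% in HepG2, with a log2 fold change of −0.96 ± 0.0849 (padj = 0.000155). It fell by 25.4% in Huh7, with −0.42 ± 0.0497 (padj = 1.23e-05).

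ALDH1L2, the mitochondrial enzyme that oxidizes 10-formyltetrahydrofolate (ENSG00000136010, chromosome 12 from 105019784 to 105107643), had the largest fall of the folate genes in both lines at low levels. It had 2.25, 1.201 and 1.04 CPM with UBL5 siRNA, against 6.51, 7.74 and 3.89 CPM with Ctrl-siRNA in HepG2, which is 20 to 51 counts against 117 to 185 counts. Huh7 cells had 1.97, 2.49 and 2.37 CPM with UBL5 siRNA, against 11.7, 12.4 and 14.3 CPM with Ctrl-siRNA. No library with UBL5 siRNA reached the lowest with Ctrl-siRNA, and the log2 fold changes were −2.0 ± 0.383 (padj = 0.00389) in HepG2 and −2.48 ± 0.138 (padj = 2.92e-08) in Huh7. ALDH1L1, its cytosolic counterpart, was listed in HepG2 and had 16.98 ± 2.05 CPM with UBL5 siRNA and 30.5 ± 2.31 CPM with Ctrl-siRNA (SD, n = 3 each), a log2 fold change of −0.84 (padj = 0.00152).

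The enzymes that interconvert the folate forms did not move as a block. MTHFD1, the cytosolic enzyme with 3 activities, fell by 37.5% in HepG2 with −0.68 (padj = 0.00134) and had −0.13 (padj = 0.226) in Huh7, where its call appeared only without UBL5 siRNA replicate 1 (padj = 0.0184). MTHFD1L, the mitochondrial formate-releasing enzyme (ENSG00000120254, chromosome 6 from 150865679 to 151101887), had 116, 116 and 112 CPM with UBL5 siRNA, against 113, 114 and 121 CPM with Ctrl-siRNA in HepG2, where the groups overlapped. In the Huh7 libraries it stood at 132, 132 and 135 CPM with UBL5 siRNA, against 93.4, 107 and 102 CPM with Ctrl-siRNA, and every library with UBL5 siRNA was above those with Ctrl-siRNA. The log2 fold changes of MTHFD1L were −0.01 ± 0.0774 (padj = 0.916) and 0.40 ± 0.0541 (padj = 4.09e-05). MTHFD2, the mitochondrial dehydrogenase and cyclohydrolase, had 0.04 (padj = 0.774) in HepG2 and 0.04 (padj = 0.482) in Huh7, and its relative MTHFD2L was not called either, with 0.27 (padj = 0.285) and −0.13 (padj = 0.235). MTHFD2L was called higher in HepG2 without Ctrl-siRNA replicate 3, with 0.43 (padj = 0.0456). FPGS, which adds the glutamate tail that holds folate in the cell, fell in both lines, with −0.41 (padj = 0.0449) and −0.27 (padj = 0.000867). The HepG2 call of FPGS was lost with RLE scaling (padj = 0.0501), with no filter on low counts (padj = 0.0602) and without Ctrl-siRNA replicate 1 or 2 or UBL5 siRNA replicate 2 or 3 (padj from 0.125 to 0.16). SLC19A1, the reduced folate carrier, had −0.25 (padj = 0.354) in HepG2 and 0.18 (padj = 0.108) in Huh7, where it was called higher without Ctrl-siRNA replicate 3 (0.30, padj = 0.00177).

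**Figure D2:**
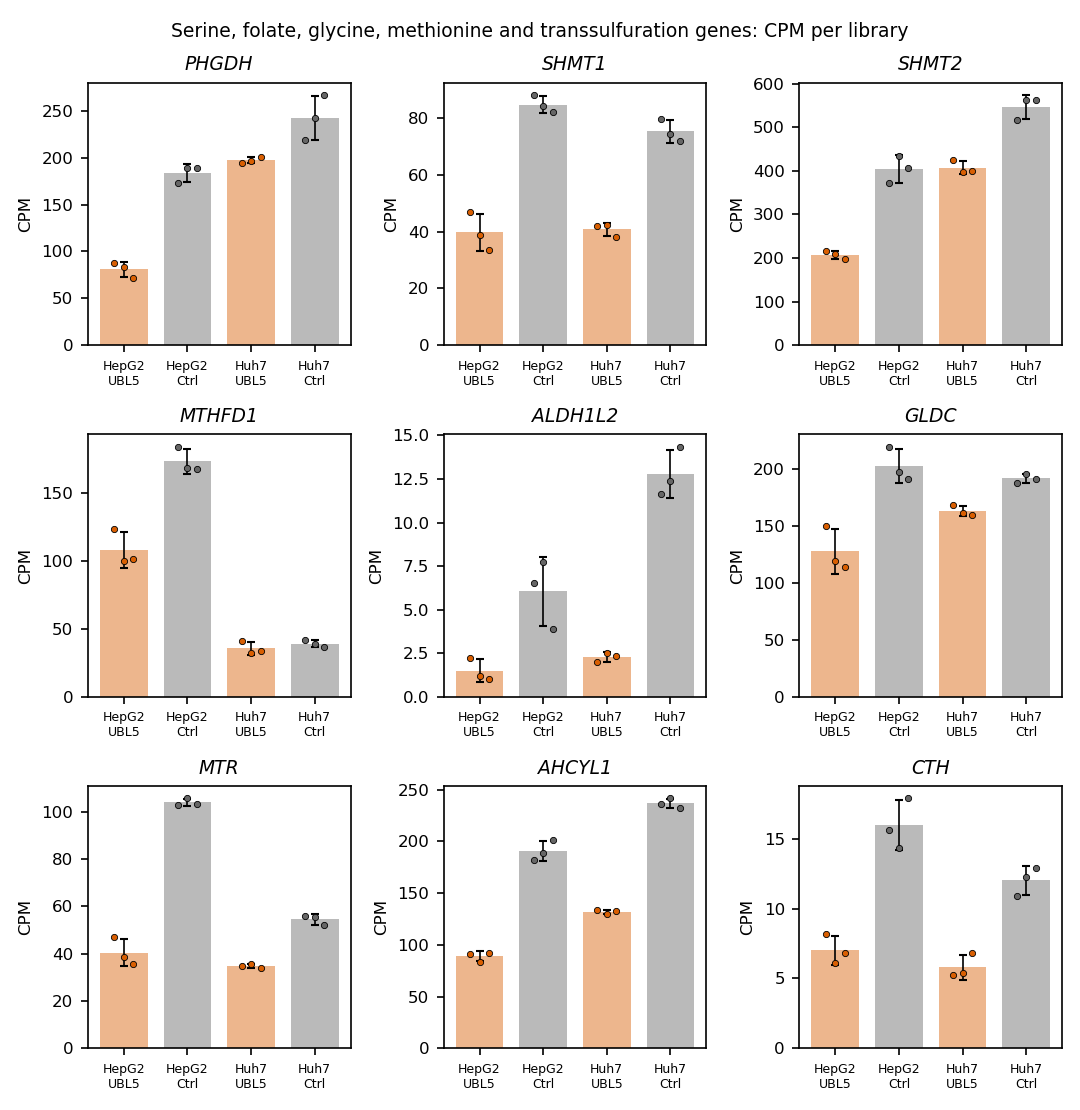
CPM per library (points), with bars at the mean and error bars of 1 SD (n = 3), for 9 genes of serine synthesis, the folate cycle, glycine cleavage, the methionine cycle and transsulfuration, in HepG2 with UBL5 siRNA and Ctrl-siRNA and in Huh7 with UBL5 siRNA and Ctrl-siRNA. The orange UBL5 siRNA points lie under the grey Ctrl-siRNA points in both lines for 8 of the 9 genes, and for MTHFD1 they overlap in Huh7, where UBL5 siRNA replicate 1 has 41.4 CPM. The 9 genes were picked for display, and other members of these roles, among them those that overlapped or rose, are not in this figure. Among all genes tested, 26.9% were lower without overlap in HepG2 and 38% in Huh7.

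Of the glycine cleavage system, which breaks glycine down in mitochondria and passes its carbon to folate, RNA of the decarboxylase fell while that of the carrier protein rose. GLDC, the decarboxylase (ENSG00000178445, chromosome 9 from 6532467 to 6645729), had 150.4, 119 and 114 CPM with UBL5 siRNA, against 219, 197 and 191 CPM with Ctrl-siRNA in HepG2. For Huh7 the levels were 168, 162 and 160.0 CPM with UBL5 siRNA, against 188, 196 and 191 CPM with Ctrl-siRNA. Neither line had an overlap between the groups, and the log2 fold changes were −0.66 ± 0.118 (padj = 0.00284) and −0.23 ± 0.0437 (padj = 0.000533). GLDCP1, a pseudogene named after GLDC, had 668 to 1087 counts with UBL5 siRNA and 1586 to 1915 counts with Ctrl-siRNA in HepG2, so reads of the pair may be split between them.

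GCSH, the lipoyl carrier protein, was higher in both lines at low counts. It had 3.21 ± 0.378 CPM with UBL5 siRNA and 1.505 ± 0.621 CPM with Ctrl-siRNA (SD, n = 3 each) in HepG2, a log2 fold change of 1.09 (padj = 0.0451). It had 4.43 ± 0.304 CPM with UBL5 siRNA and 1.59 ± 0.379 CPM with Ctrl-siRNA (SD, n = 3 each) in Huh7, with 1.47 (padj = 1.91e-05). These are 63 to 84 counts with UBL5 siRNA against 27 to 58 with Ctrl-siRNA in HepG2, while the pseudogene GCSHP5 had 202 to 334 against 264 to 420, so the GCSH level is uncertain. The HepG2 call of GCSH was lost with the replicate number as a block (1.15, padj = 0.0644), with scaling to library size alone (padj = 0.057) and without Ctrl-siRNA replicate 2 or any library with UBL5 siRNA (padj from 0.0781 to 0.143). AMT, the aminomethyltransferase, had 10, 21 and 14 counts with UBL5 siRNA, against 10, 9 and 0 with Ctrl-siRNA in HepG2, and 45, 32 and 46 counts with UBL5 siRNA, against 13, 14 and 9 with Ctrl-siRNA in Huh7. Its log2 fold changes were 1.43 (padj = 0.295) and 1.95 (padj = 3.33e-05). AMT shares 62.6% of its exon bases with ENSG00000283189 on the same strand, and reads in the shared part could not be told apart or may not have been counted.

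In the methionine cycle, the genes of the enzyme that methylates homocysteine from folate and of its reductase were lower in both lines. MTR, the methionine synthase gene (ENSG00000116984, chromosome 1 from 236795260 to 236921278), had 46.9, 38.6 and 35.7 CPM with UBL5 siRNA, against 103, 106 and 103 CPM with Ctrl-siRNA in HepG2. In Huh7 it had 34.9, 35.8 and 33.8 CPM with UBL5 siRNA, against 55.8, 55.6 and 51.9 CPM with Ctrl-siRNA. MTR fell by 61.1% in HepG2, with a log2 fold change of −1.36 ± 0.114 (padj = 0.000127). It fell by 36.05% in Huh7, with −0.65 ± 0.0589 (padj = 1.54e-06). MTRR, the reductase that restores the cobalamin of this enzyme, fell less, with −0.32 (padj = 0.0249) and −0.29 (padj = 0.000184), and its HepG2 call was lost without replicate 1 or 2 of Ctrl-siRNA or of UBL5 siRNA (padj from 0.0761 to 0.136).

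Of the genes that make S-adenosylmethionine and clear its product, MAT1A, MAT2B and AHCY were called higher in Huh7 and not called in HepG2. Of all genes tested in Huh7, 34.9% were higher and 71.3% were called in either direction. In HepG2, MAT1A and MAT2B were also higher in CPM with no overlap between the groups. A difference between the lines was called for MAT1A (padj = 0.0214) and AHCY (padj = 0.04), both lost without some single libraries. It was not called for MAT2B (padj = 0.146). MAT1A, the methionine adenosyltransferase of mature liver, had 0.14 (padj = 0.222) in HepG2 and rose by 0.54 (padj = 4.40e-05) in Huh7. MAT2A, the form found in most other tissues, had −0.43 (padj = 0.0835) in HepG2 and −0.18 (padj = 0.0395) in Huh7. In HepG2 the MAT2A level was 112, 118 and 95.1 CPM with UBL5 siRNA, against 183, 145 and 109.8 CPM with Ctrl-siRNA. The gene was called lower there with the replicate block (−0.41, padj = 0.0216), in the fit over 12 libraries and without Ctrl-siRNA replicate 3 (−0.60, padj = 0.00462). The Huh7 call of MAT2A was lost in DESeq2 (padj = 0.0685), with RLE scaling, with no filter, in the fit over 12 libraries, without any 1 of the UBL5 siRNA libraries (padj from 0.0735 to 0.155) and without Ctrl-siRNA replicate 1 (−0.08, padj = 0.174). MAT2B, the regulatory subunit, had 0.18 (padj = 0.155) in HepG2 and 0.45 (padj = 6.12e-05) in Huh7. AHCY, which hydrolyses S-adenosylhomocysteine, had 622 ± 71.8 CPM with UBL5 siRNA and 603 ± 44.1 CPM with Ctrl-siRNA (SD, n = 3 each) in HepG2. It had 856 ± 10.9 CPM with UBL5 siRNA and 643 ± 13.4 CPM with Ctrl-siRNA (SD, n = 3 each) in Huh7, where it rose by 0.41 (padj = 3.31e-06), against 0.05 (padj = 0.758) in HepG2.

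AHCYL1, an AHCY-like protein known as a regulator of inositol trisphosphate receptors (ENSG00000168710, chromosome 1 from 109984765 to 110023742), went down in both lines. It had 91.4, 83.5 and 92.5 CPM with UBL5 siRNA, against 182, 189 and 201 CPM with Ctrl-siRNA in HepG2. The Huh7 libraries had 134, 129.6 and 132 CPM with UBL5 siRNA, against 236, 241 and 232 CPM with Ctrl-siRNA. The log2 fold changes were −1.10 ± 0.0846 (padj = 9.87e-05) and −0.84 ± 0.0425 (padj = 1.41e-08), and no alternative ended either call. GNMT, the glycine methyltransferase that uses up surplus S-adenosylmethionine, had 28, 18 and 8 counts with UBL5 siRNA, against 70, 49 and 40 with Ctrl-siRNA in HepG2. Its log2 fold change of −1.32 (padj = 0.0776) was not called, and it was called lower without Ctrl-siRNA replicate 3 (−1.54, padj = 0.00819).

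**Figure D3:**
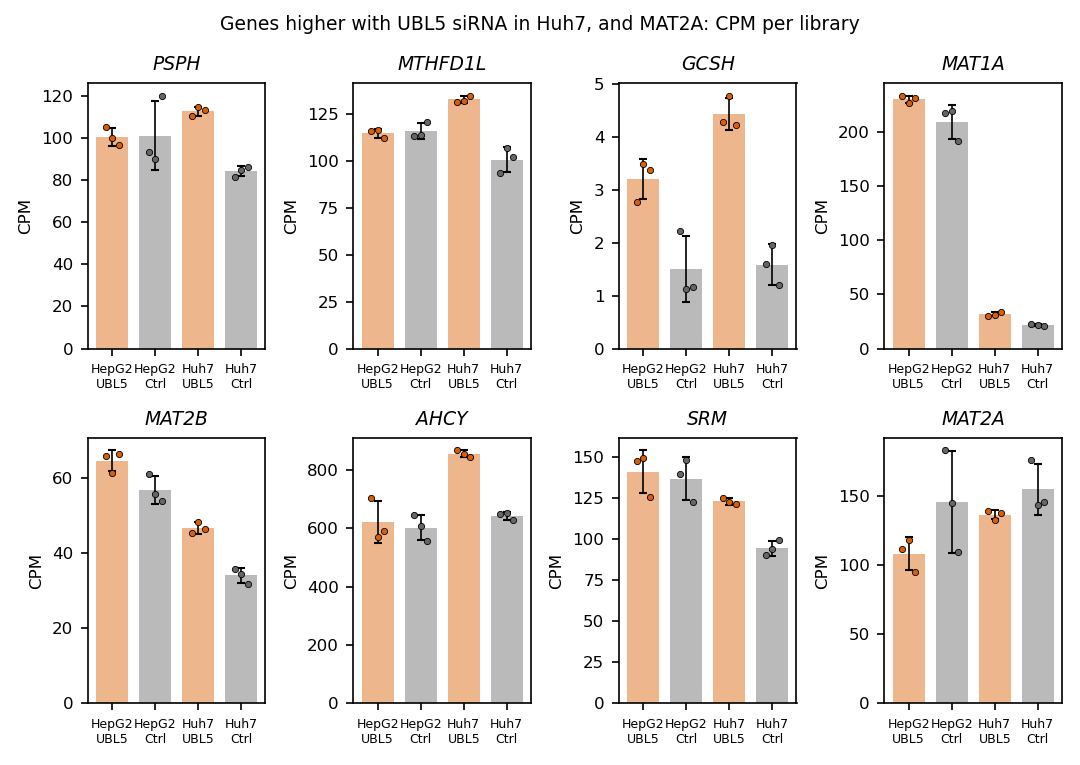
CPM per library (points), with bars at the mean and error bars of 1 SD (n = 3), for 7 genes called higher with UBL5 siRNA in Huh7 and for MAT2A, in HepG2 with UBL5 siRNA and Ctrl-siRNA and in Huh7 with UBL5 siRNA and Ctrl-siRNA. In Huh7 the UBL5 siRNA points of the 7 genes lie above all Ctrl-siRNA points, while in HepG2 the groups overlap for PSPH, MTHFD1L, AHCY and SRM, and MAT2A spreads from 109.8 to 183 CPM with Ctrl-siRNA in HepG2.

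Most genes grouped here under choline and betaine breakdown, BHMT2 among them, were lower in both lines. In HepG2, 5 of the 6 were lower, and in Huh7 all 5 tested were, with medians of −0.87 and −0.88 on the log2 scale, where 20.1% of all genes tested were lower in HepG2 and 36.4% in Huh7. CHDH, the choline dehydrogenase of mitochondria (ENSG00000016391, chromosome 3 from 53812335 to 53846419), had 83.8, 65.4 and 52.5 CPM with UBL5 siRNA, against 145, 134 and 118 CPM with Ctrl-siRNA in HepG2. Levels in Huh7 were 62.2, 58.7 and 60.5 CPM with UBL5 siRNA, against 96.01, 104 and 101 CPM with Ctrl-siRNA. The log2 fold changes of CHDH were −0.98 ± 0.163 (padj = 0.00207) and −0.73 ± 0.0514 (padj = 1.83e-07), and it shares 18% of its exon bases with CACNA1D on the opposite strand. ALDH7A1, a dehydrogenase that can make betaine from its aldehyde (ENSG00000164904, chromosome 5 from 126531200 to 126595362), had 88.9, 70.2 and 74.3 CPM with UBL5 siRNA, against 123, 106 and 122 CPM with Ctrl-siRNA in HepG2. Its Huh7 levels were 48.2, 45.5 and 46.9 CPM with UBL5 siRNA, against 86.99, 87.4 and 84.3 CPM with Ctrl-siRNA. They gave log2 fold changes of −0.59 ± 0.114 (padj = 0.0041) and −0.88 ± 0.0506 (padj = 3.67e-08), with no overlap between the groups, and the pseudogene ALDH7A1P1 had 468 to 724 counts with UBL5 siRNA and 971 to 1303 with Ctrl-siRNA in HepG2.

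BHMT, BHMT2 and DMGDH, the gene of dimethylglycine dehydrogenase, which uses the product of the BHMT enzyme, are neighbours on chromosome 5. In RefSeq, BHMT2 starts at 79069767 on the plus strand and DMGDH at 79069674 on the minus strand, so the pair are head to head with 92 bases between their start sites, and BHMT starts 42042 bases beyond BHMT2 on the plus strand. The promoter window of BHMT2, which also holds the start of DMGDH, is shown because both genes fell in Huh7. It runs from 250 bases before to 50 bases after the BHMT2 start (RefSeq, GRCh38.p14), and the 94 bases in capitals run from the DMGDH start to the BHMT2 start.
BHMT2 promoter, chr5:79069517-79069816, plus strand: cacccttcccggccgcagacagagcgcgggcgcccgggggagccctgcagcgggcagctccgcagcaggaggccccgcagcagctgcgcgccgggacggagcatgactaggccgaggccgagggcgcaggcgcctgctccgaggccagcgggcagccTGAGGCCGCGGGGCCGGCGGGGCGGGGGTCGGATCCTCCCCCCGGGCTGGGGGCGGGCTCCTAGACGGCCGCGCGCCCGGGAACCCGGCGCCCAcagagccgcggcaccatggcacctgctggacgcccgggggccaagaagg

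BHMT2 (ENSG00000132840, chromosome 5 from 79069767 to 79090069) had 8.64, 7.87 and 7.68 CPM with UBL5 siRNA, against 19.7, 19.9 and 19.4 CPM with Ctrl-siRNA in HepG2. Huh7 cells had 46.2, 44.3 and 43.5 CPM with UBL5 siRNA, against 203, 207 and 194 CPM with Ctrl-siRNA. BHMT2 fell by 58.98% in HepG2, with a log2 fold change of −1.29 ± 0.127 (padj = 0.000222). It fell by 77.8% in Huh7, with −2.17 ± 0.0496 (padj = 2.86e-10), and the libraries with UBL5 siRNA were far under those with Ctrl-siRNA in both. The GENCODE span of DMGDH (ENSG00000132837, chromosome 5 from 78997564 to 79236038) takes in BHMT2 and BHMT, unlike the RefSeq start given above. DMGDH had 5.03, 3.31 and 4.15 CPM with UBL5 siRNA, against 7.81, 6.11 and 4.46 CPM with Ctrl-siRNA in HepG2, where the groups overlapped. In Huh7 DMGDH had 13.2, 12.9 and 13.4 CPM with UBL5 siRNA, against 37.5, 38.1 and 38.8 CPM with Ctrl-siRNA, with no overlap. The log2 fold changes of DMGDH were −0.56 ± 0.267 (padj = 0.139) and −1.53 ± 0.0657 (padj = 4.50e-09), and the gene was called lower in HepG2 without Ctrl-siRNA replicate 3 (−0.75, padj = 0.019) and in the fit over 12 libraries (−0.55, padj = 0.0269).

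BHMT, the gene of betaine-homocysteine methyltransferase, had 2.56, 3.65 and 4.83 CPM with UBL5 siRNA, against 14.1, 19.5 and 32.5 CPM with Ctrl-siRNA in HepG2. The 3 libraries with UBL5 siRNA were all under those with Ctrl-siRNA, which differed among themselves by more than 2 times, and the log2 fold change was −2.59 ± 0.342 (padj = 0.000698). In Huh7, BHMT had 3, 7 and 5 counts with UBL5 siRNA, against 18, 10 and 6 with Ctrl-siRNA, and was not tested there. BHMT shares 6.85% of its exon bases with DMGDH on the opposite strand. SARDH, the sarcosine dehydrogenase that follows DMGDH (ENSG00000123453, chromosome 9 from 133663560 to 133739955), had 41.2, 29.3 and 23.8 CPM with UBL5 siRNA, against 55.2, 60.6 and 44.5 CPM with Ctrl-siRNA in HepG2. In Huh7 SARDH had 33.9, 32.1 and 29.99 CPM with UBL5 siRNA, against 40.6, 41.4 and 44.3 CPM with Ctrl-siRNA. It fell in both lines, with −0.76 ± 0.201 (padj = 0.017) and −0.40 ± 0.0677 (padj = 0.000252), and the HepG2 call was lost without Ctrl-siRNA replicate 2 or UBL5 siRNA replicate 2 or 3 (padj from 0.0539 to 0.074).

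**Figure D4:**
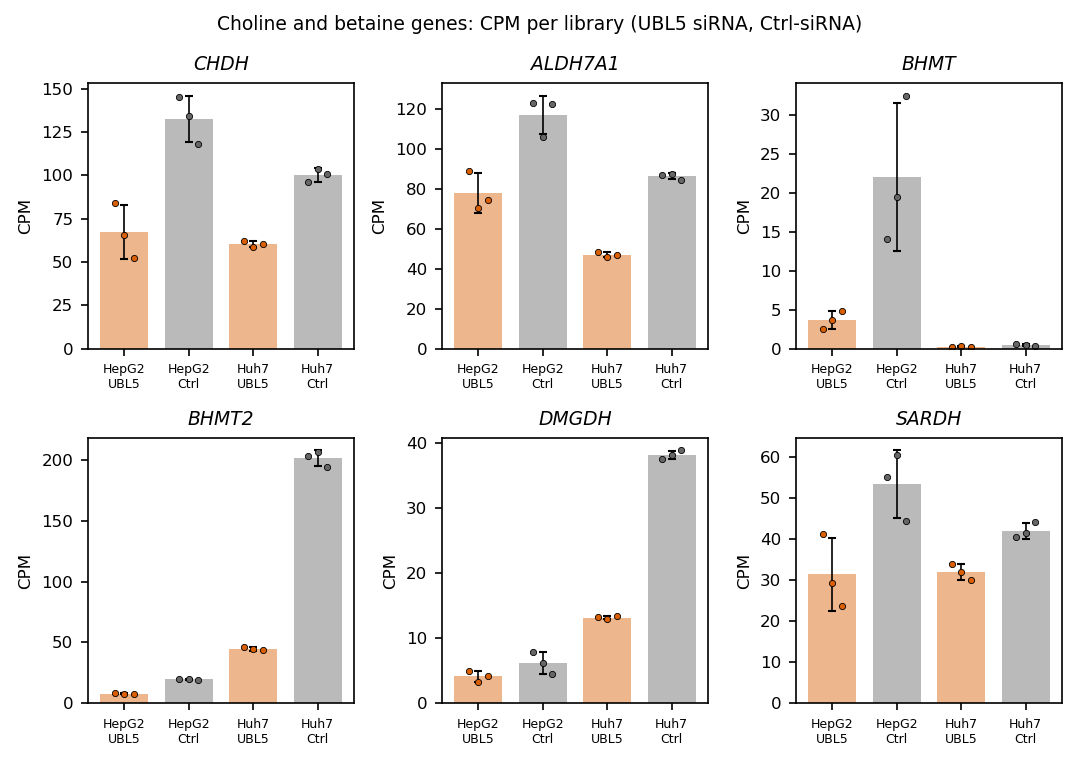
CPM per library (points), with bars at the mean and error bars of 1 SD (n = 3), for the 6 genes of choline and betaine breakdown, in HepG2 with UBL5 siRNA and Ctrl-siRNA and in Huh7 with UBL5 siRNA and Ctrl-siRNA. All UBL5 siRNA points lie under the Ctrl-siRNA points of their line except for DMGDH in HepG2 and BHMT in Huh7, where they overlap, and BHMT is seen almost only in HepG2 and BHMT2 mostly in Huh7.

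Both genes of transsulfuration, which turns homocysteine into cysteine, were lower in both lines. Of all genes tested, 20.1% were lower in HepG2 and 36.4% in Huh7. CBS, the cystathionine synthase gene (ENSG00000160200, chromosome 21 from 43053191 to 43076943), had 1.102, 1.16 and 0.674 CPM with UBL5 siRNA, against 2.53, 2.13 and 3.03 CPM with Ctrl-siRNA in HepG2, which is 13 to 28 counts against 51 to 91. In the Huh7 libraries it stood at 5.17, 4.23 and 4.92 CPM with UBL5 siRNA, against 7.995, 9.45 and 9.78 CPM with Ctrl-siRNA. The groups did not overlap, and the log2 fold changes of CBS were −1.38 ± 0.384 (padj = 0.0215) and −0.92 ± 0.128 (padj = 5.07e-05). The HepG2 call was lost without Ctrl-siRNA replicate 1 or any of the UBL5 siRNA libraries (padj from 0.0511 to 0.0813). GRCh38 holds a further copy of CBS on chromosome 21 (ENSG00000274276, from 6444869 to 6467513), which GENCODE labels an artifact. It was not among the listed genes, so reads that match both copies may be missing from these counts. CTH, the next enzyme (ENSG00000116761, chromosome 1 from 70411218 to 70439851), had 8.16, 6.13 and 6.796 CPM with UBL5 siRNA, against 15.7, 14.4 and 17.9 CPM with Ctrl-siRNA in HepG2. In Huh7 CTH had 5.22, 5.38 and 6.82 CPM with UBL5 siRNA, against 10.9, 12.2 and 12.9 CPM with Ctrl-siRNA. It fell in both lines with no overlap between the groups, with log2 fold changes of −1.18 ± 0.166 (padj = 0.000913) and −1.04 ± 0.126 (padj = 1.56e-05).

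Of the 5 polyamine genes, 2 were lower in HepG2, and 3 were lower and 1 higher in Huh7, none by more than 0.59 on the log2 scale. Of all genes tested, 20.1% were lower and 16.5% higher in HepG2, and 36.4% and 34.9% in Huh7, where 71.3% were called, so the share of polyamine genes called in either direction in Huh7, 4 of 5, stood near that of all genes. ODC1, which makes putrescine and is among the most abundant members, had −0.18 (padj = 0.212) in HepG2 and −0.16 (padj = 0.0142) in Huh7. It was called lower in HepG2 with the replicate block (−0.18, padj = 0.0466), and its Huh7 call was lost in the fit over 12 libraries (padj = 0.0796) and without Ctrl-siRNA replicate 2 or UBL5 siRNA replicate 2 or 3 (padj from 0.0526 to 0.0768). AMD1, which makes the aminopropyl donor, was not called in either line, with −0.22 (padj = 0.0635) and 0.13 (padj = 0.0621). It was called lower in HepG2 in the fit over 12 libraries, with scaling to library size alone and without UBL5 siRNA replicate 1 (padj from 0.0236 to 0.0472). In Huh7 it was called higher in DESeq2, with RLE scaling, with no filter on low counts, with the replicate block and without Ctrl-siRNA replicate 1 or UBL5 siRNA replicate 3 (padj from 0.00433 to 0.0468). SRM, the spermidine synthase, rose in Huh7 with 0.38 (padj = 2.63e-05) and had 0.04 (padj = 0.777) in HepG2. SMS, the spermine synthase, fell in both lines, with −0.30 (padj = 0.0286) and −0.32 (padj = 0.00074). The HepG2 call of SMS was lost without any 1 of the Ctrl-siRNA libraries or UBL5 siRNA replicate 2 or 3 (padj from 0.0519 to 0.176) and without both libraries of replicate 3 (padj = 0.0692). MTAP, which salvages methionine from the by-product of polyamine synthesis (ENSG00000099810, chromosome 9 from 21802636 to 21937651), had 48.1, 42.3 and 49.03 CPM with UBL5 siRNA, against 67.1, 61.9 and 80.4 CPM with Ctrl-siRNA in HepG2. In Huh7 MTAP had 43.9, 40.03 and 41.3 CPM with UBL5 siRNA, against 52.8, 46.6 and 48.6 CPM with Ctrl-siRNA. The groups did not overlap, and the log2 fold changes of MTAP were −0.59 ± 0.121 (padj = 0.00572) and −0.24 ± 0.06604 (padj = 0.00612).

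The letters CACGTG, the core E-box bound by MYC and related factors, were found in the promoter windows of 6 of the 33 members with a RefSeq window, FPGS, MTHFD1, MTHFD1L, ODC1, SLC19A1 and SRM. This is 18.2% of those members, against 8.77% of all genes with a window. The letters TGATGNAA, a composite C/EBP-ATF site bound by ATF4, were found in 1 of the 33, MTHFD1L, which is 3.03%, against 4.46% of all genes. Both strands were searched in windows of 300 bases, and MTRR, ALDH1L2, PSPH and SHMT2 had no window. The windows of ODC1, SRM and MTHFD1L are shown because they hold these letters, given in capitals, and because their genes did not move alike, with log2 fold changes in Huh7 of −0.16, 0.38 and 0.40. The sequences are from RefSeq (GRCh38.p14).
ODC1 promoter, chr2:10447963-10448262, minus strand: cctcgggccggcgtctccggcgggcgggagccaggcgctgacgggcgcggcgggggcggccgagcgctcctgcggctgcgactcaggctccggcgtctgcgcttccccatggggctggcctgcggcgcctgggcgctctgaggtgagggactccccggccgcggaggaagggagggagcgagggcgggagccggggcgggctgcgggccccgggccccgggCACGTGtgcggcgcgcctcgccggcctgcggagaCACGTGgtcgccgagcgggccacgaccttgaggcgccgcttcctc
SRM promoter, chr1:11059969-11060268, minus strand: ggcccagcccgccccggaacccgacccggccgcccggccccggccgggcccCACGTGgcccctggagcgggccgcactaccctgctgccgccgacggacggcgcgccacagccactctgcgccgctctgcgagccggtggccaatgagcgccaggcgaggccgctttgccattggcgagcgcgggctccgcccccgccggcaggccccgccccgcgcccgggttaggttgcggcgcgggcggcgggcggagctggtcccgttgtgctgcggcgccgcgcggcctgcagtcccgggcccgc
MTHFD1L promoter, chr6:150866236-150866535, plus strand: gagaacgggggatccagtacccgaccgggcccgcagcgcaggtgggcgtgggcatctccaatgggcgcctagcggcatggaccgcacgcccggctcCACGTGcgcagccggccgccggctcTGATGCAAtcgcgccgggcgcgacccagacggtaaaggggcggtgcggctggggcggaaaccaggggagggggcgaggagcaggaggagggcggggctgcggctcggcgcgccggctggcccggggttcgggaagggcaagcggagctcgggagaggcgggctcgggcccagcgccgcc

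The response differed between the lines for 12 of the 35 genes tested in a fit over all 12 libraries, with 10 lower and 2 higher in HepG2 than in Huh7. This is 28.6% lower and 5.71% higher, against 11.7% and 9.88% of the 15668 genes tested, of which 21.5% were called in either direction. Without both HepG2 libraries of replicate 3, 9 were lower and 4 higher. The count of genes lower was 5 without HepG2 UBL5 siRNA replicate 2, 6 without HepG2 UBL5 siRNA replicate 3, 5 without Huh7 UBL5 siRNA replicate 1, 6 without Huh7 UBL5 siRNA replicate 2 or 3, 6 without Huh7 Ctrl-siRNA replicate 2 and 4 without Huh7 Ctrl-siRNA replicate 3. PHGDH fell further in HepG2, by −0.86 ± 0.117 (padj = 0.000291) on the log2 scale, as did MTR with −0.69 ± 0.126 (padj = 0.00199) and SHMT2 with −0.51 ± 0.0956 (padj = 0.00224). MTHFD1L, higher in Huh7, had a difference of −0.38 ± 0.0892 (padj = 0.00776). BHMT2 and DMGDH went the other way and fell further in Huh7, with differences of 0.92 ± 0.09898 (padj = 6.40e-05) and 1.01 ± 0.251 (padj = 0.0114). The genes with no call of a difference included SHMT1 with −0.18 (padj = 0.408), CTH with −0.11 (padj = 0.772), ALDH1L2 with 0.52 (padj = 0.412) and CBS with −0.42 (padj = 0.374), whose standard errors of 0.142, 0.219, 0.409 and 0.312 leave room for a difference. AHCY, GLDC and PSPH lost the call of a difference without most single libraries, AHCY with padj from 0.0662 to 0.0931, GLDC from 0.0596 to 0.0879 and PSPH from 0.0507 to 0.109, and AMD1 did so without 8 of the 12 (padj from 0.0507 to 0.102). Without HepG2 Ctrl-siRNA replicate 3, the difference of PSPH was −0.25 (padj = 0.0443).

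With Ctrl-siRNA, the lines themselves held different levels of these genes, and a difference between lines cannot be told apart from a batch of the lines. Of 35 genes tested, 17 were higher and 10 lower in HepG2 than in Huh7, which is 48.6% and 28.6%, against 31.7% and 32% of all genes, 63.7% in either direction. Per kilobase of exon, MAT1A had a level of 59.7 ± 3.96 in HepG2 and 5.81 ± 0.3600 in Huh7 (CPM per kb, SD, n = 3 each), and its log2 difference of HepG2 over Huh7 was 3.36 (padj = 5.09e-13). BHMT stood at 6.61 ± 2.896 in HepG2 and 0.1299 ± 0.0486 in Huh7, with 5.61 (padj = 2.44e-08), and MTHFD1 at 10.4 ± 0.481 in HepG2 and 2.21 ± 0.155 in Huh7, with 2.24 (padj = 4.56e-10). BHMT2 and DMGDH, the head-to-head pair, were lower in HepG2, BHMT2 with levels of 5.498 ± 0.0379 in HepG2 and 52.8 ± 2.04 in Huh7 and a log2 difference of −3.26 (padj = 2.07e-13). DMGDH had levels of 1.21 ± 0.321 in HepG2 and 7.04 ± 0.0715 in Huh7 and a log2 difference of −2.55 (padj = 1.78e-08). CBS was also lower in HepG2, at 0.395 ± 0.0716 in HepG2 and 1.31 ± 0.1296 in Huh7, with −1.72 (padj = 6.13e-06). In the order of these levels, ODC1, AHCY and PSAT1 stood at the top in both lines, at 181.6, 161.5 and 148 in HepG2 and 136, 161.5 and 164.5 in Huh7, and AHCY was not called between the lines (padj = 0.997). AMT was lowest, at 0.0464 ± 0.0401 in HepG2 and 0.0884 ± 0.01702 in Huh7. Scaling to library size alone moved the median of all genes by −0.12 in this comparison, and under it MTHFD2, SHMT1 and SARDH lost their calls (padj of 0.165, 0.25 and 0.11). PSPH had 0.36 (padj = 0.00458), and 0.21 (padj = 0.0105) without HepG2 Ctrl-siRNA replicate 3.

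**Figure D5:**
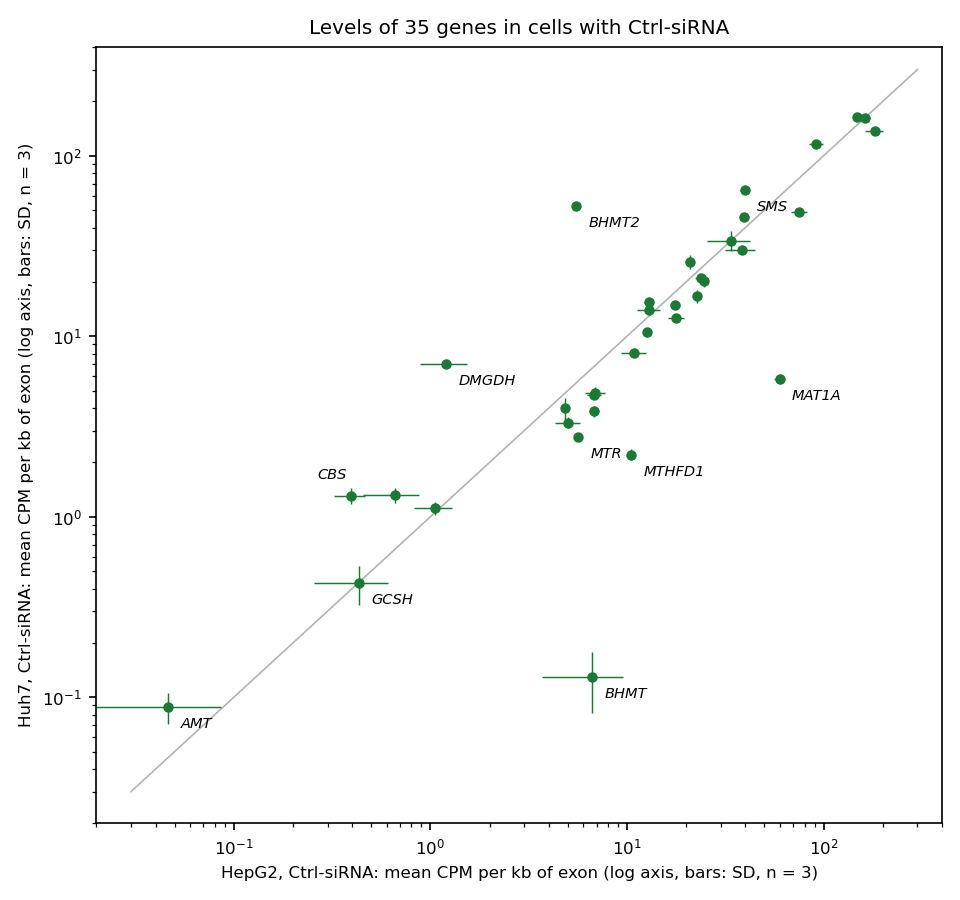
Mean CPM per kb of exon in cells with Ctrl-siRNA, HepG2 on the horizontal and Huh7 on the vertical axis (both log axes, error bars of 1 SD, n = 3), 1 point for each of 35 genes, with the line of equal levels. MAT1A, MTHFD1 and BHMT lie on the HepG2 side of the line, and BHMT2, DMGDH and CBS on the Huh7 side.

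Other genes of these pathways, outside the 37, were read from lists of general knowledge, and their log2 fold changes are given for both lines. Their counts stand against 20.1% lower and 16.5% higher of all genes tested in HepG2, and 36.4% lower and 34.9% higher in Huh7. The lists here and below were chosen with earlier results of these data known, so these shares are a description and no independent support. Of 18 other folate genes, 15 were tested in HepG2, with 9 lower (60%) and 1 higher, and 14 in Huh7, with 7 lower (50%) and 4 higher (28.6%). SFXN2, a paralog of the mitochondrial serine carrier, had −2.51 in HepG2 (padj = 0.000186) and −2.41 in Huh7 (padj = 1.24e-07). SFXN1, the carrier itself, had −0.72 in HepG2 (padj = 0.000315) and −0.75 in Huh7 (padj = 7.25e-08). SFXN3, another paralog, had −1.26 in HepG2 (padj = 0.000179) and −0.62 in Huh7 (padj = 0.00027). Of 15 other serine and glycine genes tested in each line, 7 were lower (46.7%) and 2 higher in HepG2 and 10 lower (66.7%) and 3 higher in Huh7. AGXT, which turns glyoxylate into glycine, had −1.27 in HepG2 (padj = 0.00028) and −1.19 in Huh7 (padj = 0.00115). GCAT, of threonine breakdown, had −1.57 in HepG2 (padj = 0.00172) and −0.91 in Huh7 (padj = 3.13e-06). GLYCTK, the glycerate kinase, had −1.26 in HepG2 (padj = 0.00185) and −0.66 in Huh7 (padj = 2.42e-07).

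Among other methionine, methyl and sulfur genes, 4 of 24 were lower (16.7%) and 6 higher (25%) in HepG2, and 9 of 25 were lower (36%) and 9 higher (36%) in Huh7. The Huh7 shares and the lower share in HepG2 stood near those of all genes, which were 20.1% lower and 16.5% higher in HepG2 and 36.4% and 34.9% in Huh7. ETHE1 and SQOR take part in the oxidation of sulfide in mitochondria. ETHE1 had −1.57 in HepG2 (padj = 0.000425) and −0.76 in Huh7 (padj = 4.73e-05). SQOR had −1.05 in HepG2 (padj = 0.000498) and −2.40 in Huh7 (padj = 1.62e-07). CHKA, the choline kinase that takes choline towards phospholipid, had 1.06 in HepG2 (padj = 0.000315) and 1.34 in Huh7 (padj = 7.99e-10). Of the other polyamine genes, 6 of 14 were higher in HepG2 (42.9%), none was lower and 8 were not called, and 9 of 13 were higher (69.2%) and 2 lower in Huh7, against 16.5% and 34.9% of all genes higher. SMOX, the spermine oxidase, had 0.44 in HepG2 (padj = 0.0109) and 0.81 in Huh7 (padj = 2.29e-07). EIF5A, the protein modified with spermidine, had 0.46 in HepG2 (padj = 0.0164) and 0.56 in Huh7 (padj = 3.76e-06). ATP13A3, a polyamine transporter, had 0.41 in HepG2 (padj = 0.0167) and 0.35 in Huh7 (padj = 5.48e-05). In glutathione synthesis, 3 of 8 genes were lower (37.5%) and 1 higher in HepG2, and 4 of 9 were lower (44.4%) and 3 higher (33.3%) in Huh7, where the shares were near those of all genes. GSS, the synthetase, had −0.71 in HepG2 (padj = 0.000727) and −0.47 in Huh7 (padj = 4.97e-06). CHAC2, which degrades glutathione, had −0.58 in HepG2 (padj = 0.0125) and −0.64 in Huh7 (padj = 0.000333). GCLC, the catalytic subunit of the first step, had 0.48 in HepG2 (padj = 0.0138) and 0.38 in Huh7 (padj = 5.83e-05).

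Of 20 tested genes from a list of ATF4 and its targets outside the members, 10 were lower (50%) and 3 higher (15%) in HepG2, and 7 were lower (35%) and 6 higher (30%) in Huh7. Of all genes tested, 20.1% were lower and 16.5% higher in HepG2, and 36.4% and 34.9% in Huh7, which the Huh7 shares of this list were near. PCK2, the mitochondrial PEP carboxykinase, had −1.13 in HepG2 (padj = 0.000554) and −1.54 in Huh7 (padj = 3.24e-09). VLDLR, a lipoprotein receptor, had −1.05 in HepG2 (padj = 0.00203) and −0.98 in Huh7 (padj = 3.06e-06). ATF5, a related transcription factor, had −0.83 in HepG2 (padj = 0.00212) and −0.85 in Huh7 (padj = 1.06e-05). ATF4 RNA itself had −0.02 in HepG2 (padj = 0.904) and 0.16 in Huh7 (padj = 0.028). Of MYC and its partners, 2 of 4 tested genes were higher in HepG2, and 4 of 5 were higher in Huh7, against 16.5% and 34.9% of all genes. MYC had 0.39 in HepG2 (padj = 0.00518) and 0.62 in Huh7 (padj = 5.47e-06). MNT, a repressor that shares its partner, had 1.07 in HepG2 (padj = 0.0248) and 0.73 in Huh7 (padj = 4.77e-05). MAX, that partner, had 0.18 in HepG2 (padj = 0.15) and 0.25 in Huh7 (padj = 0.00219).

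Across the members, the log2 fold change had a Spearman rank correlation of −0.402 with the number of exons of the canonical transcript in HepG2 (37 genes) and −0.506 in Huh7 (34 genes), given as a description over genes that share libraries and scaling. Over all protein-coding genes tested, the same correlation was −0.119 in HepG2 (12009 genes) and −0.049 in Huh7 (12941 genes). With gene span it was −0.158 and −0.288 across the members, against −0.064 and −0.117 over all protein-coding genes.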

How the data were processed

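RNA was sequenced from 12 libraries (TruSeq stranded poly(A) kit, 50 base single reads, Illumina HiSeq). Per the paper's methods and the submitters' processing notes, the authors used bcl2fastq, FastQC 0.11.9, STAR 2.7.6a with GRCh38 and featureCounts, and deposited raw counts per gene. The featureCounts version, annotation and strand setting are not given in the sources used here. The tables also hold the authors' DESeq2 1.30.0 columns (mean, fold change, standard error, statistic, p-values), which were not used. No column was left unmatched to a library.

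Counts were fitted within each line with edgeR 4.0.16 in R 4.3.3 (TMM, filterByExpr with a minimum count of 10 and total of 15, glmQLFit and glmQLFTest, with siRNA as the only term), and over all 12 libraries for differences between lines. Standard errors are the log2 fold change over the square root of F. Levels per kb used exon lengths of GENCODE 44, and promoter letters RefSeq windows. Alternatives were DESeq2 1.42.0, RLE or library-size scaling, no filter, a replicate block, the fit over 12 libraries and leaving out each library. Without HepG2 replicate 3 was added after seeing the data, since its column names lack the tag of the others. In HepG2, same-numbered libraries deviated together (correlations 0.264, 0.169 and 0.172), so the numbers were read as pairs from the data. The main fit leaves this pairing out, and only the alternative with the replicate block takes it in. No 2 libraries of a group were alike within sampling noise (mean chi-square per gene 4.16 to 38.8). Tested on simulated data, changes of 1 on the log2 scale were called in 57.6% of 59 genes in HepG2 and 88.9% of 72 in Huh7. Changes of 0.5 were called in 12.9% of 70 genes in HepG2 and 63.5% of 63 in Huh7. Few genes were changed there, while 36.7% and 71.3% of all genes were called in the data. The adjustment was therefore stricter in the simulation, and these shares do not give the recovery in the real data.

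The members and lists were chosen with earlier results of these data known. By rule, values of every library are given for UBL5 and the 14 members called in both lines with the smallest larger adjusted p. The rule also took the 6 members with the smallest adjusted p of the difference between lines. Library values of BHMT, MAT2A, AMT and GNMT were given outside this rule. From each further list, the 3 genes with the smallest larger adjusted p are named; ATF4 was named after its values were seen.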

Additional observations from a re-analysis of the deposited data

Results flagged for a closer look

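The response to UBL5 siRNA differed between HepG2 and Huh7 for 12 genes, by the test of the difference itself over 12 libraries (edgeR, response in HepG2 minus response in Huh7, log2 scale). These were 34.3% of the 35 members tested, against 21.5% of all 15668 genes tested. The difference was −0.86 for PHGDH, −0.69 for MTR, −0.51 for SHMT2 and −0.52 for MTHFD1, all lower with UBL5 siRNA in HepG2. It was −0.38 for MTHFD1L, −0.37 for MAT1A, −0.34 for AHCY and −0.40 for PSPH, all higher with UBL5 siRNA in Huh7 and not called in HepG2. GLDC differed by −0.40, and AMD1, called in neither line alone, by −0.32. BHMT2 with 0.92 and DMGDH with 1.01 fell further in Huh7. The calls of MAT1A were lost without Huh7 Ctrl-siRNA replicate 3 or Huh7 UBL5 siRNA replicate 3 (adjusted p of 0.0638 and 0.066), and those of MTHFD1 without HepG2 UBL5 siRNA replicate 2, Huh7 Ctrl-siRNA replicate 3 or Huh7 UBL5 siRNA replicate 1 (adjusted p from 0.0566 to 0.0646). AHCY, GLDC, PSPH and AMD1 lost the call of a difference without most single libraries (adjusted p from 0.0507 to 0.109).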

How the results depend on the processing

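Of 2147 values of single members under an alternative, 123 lost and 39 gained a call, and no called value changed sign, while 74 values that passed no test did. In HepG2, the members higher with UBL5 siRNA numbered 1, and 0 with scaling to library size alone and with the replicate block, where GCSH was no longer called (adjusted p of 0.057 and 0.0644), and 0 to 2 without single libraries. Over all genes lower in HepG2, the count was 3173, and 1985 to 3892 without single libraries. For the difference between lines, 10 members were lower and 4 to 11 were without single libraries, and 2 were higher, against 4 without both HepG2 libraries of replicate 3. The causes were not tested. The replicate block changed the HepG2 calls of GCSH, MAT2A and ODC1 and no other there. In Huh7 the same-numbered libraries had correlations of 0.266, 0.014 and 0.365, and UBL5 siRNA replicate 2 correlated best with Ctrl-siRNA replicate 1 (0.0679). The numbers were not read as pairs in Huh7, though replicates 1 and 3 had correlations as high as those in HepG2, so pairing remains unclear. With the block, 10 members were higher and 21 lower in Huh7, against 8 and 21. For the difference between lines it gave 3 higher and 13 lower. Depth limits AMT and GCSH in both lines, CBS and GNMT in HepG2 and BHMT in Huh7, which had under 100 counts in every library there.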
